A study of Mus musculus with 3 samples.

Results

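The Hox genes encode homeodomain transcription factors that lie in 4 clusters, Hoxa on chromosome 6, Hoxb on chromosome 11, Hoxc on chromosome 15 and Hoxd on chromosome 2. Described here are 38 of these genes out of 21887 coding genes of the mouse annotation, through the genomic regions where a ChIP-seq experiment for the transcription factor Runx1 found enrichment in mouse spinal cord. The genes were chosen by symbol: a region belonged to them when the authors' annotated table assigned it to one of the 38 symbols. That rule found 2 of 451 regions in replicate 1, 18 of 1641 in replicate 2 and 68 of 13194 in replicate 3. The genes were picked with the regions and their folds in view, so every value below is a description of 3 libraries and carries no test.

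The study made 3 replicates of 1 group and titled its series as one on Runx1 in microglia, opioid analgesia and withdrawal. Each replicate was an immunoprecipitation with a Runx1 antibody (9 µg) from 10 µg of chromatin pooled from 10 spinal cords of male C57BL/6J mice aged 8 to 10 weeks. Dissociated cells of the whole cord were used after removal of debris, with no sort for a cell type. No treatment, genotype or second group enters here, and the labels do not say whether the pools shared animals. For replicate 3 the label meant for the tissue names the antibody instead, and only its title places it in the group. In a pool of mixed cells, more bound cells and more binding per cell cannot be told apart.

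The lists of regions differed in length before any gene was considered. Replicate 3 had 29.3 times as many regions as replicate 1, and replicate 2 had 3.64 times as many. Regions covered 172 kb, 891 kb and 8460 kb of the genome in replicates 1, 2 and 3. Fold, the authors' ratio of the read pileup at a summit to the local background, had medians of 4.86, 4.01 and 3.81 over all regions. A fold ranks regions within its own list only, so folds of different replicates printed side by side below are not on a common scale. Sequencing depth is unknown. Among markers of cord cells, regions were assigned in replicates 1, 2 and 3 to 0, 8 and 10 of 10 oligodendrocyte genes and to 1, 2 and 9 of 10 neuronal genes. The same counts were 0, 1 and 2 of 10 for microglia, 0, 0 and 4 of 8 for astrocytes, and 0 of 6 for endothelium in each replicate. Of all coding genes, 1.51%, 5.17% and 31.5% had an assigned region. The neuronal counts lie above that share in each replicate, and the oligodendrocyte counts in replicates 2 and 3 only. The microglial count lies above it in replicate 2, through 1 gene, and below it in replicates 1 and 3. The astrocyte count lies above it in replicate 3 only, and the endothelial count below it in each replicate. These counts show where regions were called and not which genes were expressed, so the cells that carried the Hox regions were not identified.

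Hox proteins give cells of the embryo their position along the head-to-tail axis. The order of the genes in a cluster follows the order in which they are used along that axis, so the genes with low numbers act in the hindbrain and neck and those with high numbers at lumbar and tail levels. Genes with the same number in different clusters are paralogs. In the spinal cord, Hox genes set which motor neuron types form at each level, and cells of the adult cord keep part of this positional pattern. The clusters are also textbook targets of opposing chromatin complexes, Polycomb for silencing and Trithorax for activity, and Hox proteins bind DNA together with the TALE cofactors Pbx and Meis. Runx1 is best known from blood formation and binds DNA through its Runt domain.

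Promoter sequences show the bases at the gene starts, whether or not a region overlapped them. RefSeq promoter windows on GRCm38.p6, from 250 bases before to 50 bases after a start, matched 22 of the 38 genes and gave 24 windows. Of the Hoxb genes only Hoxb1, Hoxb4 and Hoxb8 had a window, and of the Hoxc genes only Hoxc4. The other Hoxb and Hoxc genes, and Hoxa4, were not searched, so the windows do not compare the clusters. A search for the Runx core motif, spelled TGTGGT or TGCGGT or the reverse complements ACCACA and ACCGCA, found it in 3 of 24 windows (12.5%), against 22.4% of all 32851 promoter windows. Of windows overlapped by a replicate 3 region, 3 of 14 Hox windows (21.4%) and 21.4% of all windows held the motif. Of windows not overlapped, 0 of 10 Hox windows and 22.7% of all windows held it. The 3 windows with the motif belonged to Hoxd1, Hoxd3 and Hoxd10. The 250 bases before the start of these 3 genes are printed first because they hold the motif, in capitals, and those of Hoxa2, Hoxa9 and Hoxb4 follow because these genes had regions in at least 2 replicates but no motif. All run 5′ to 3′ on the strand of the gene. The Hoxd1 sequence is chr2:74762730-74762979 (plus strand), Hoxd3 is chr2:74711743-74711992 (plus strand) and Hoxd10 is chr2:74691641-74691890 (plus strand). Hoxa2 is chr6:52164832-52165081 (minus strand), Hoxa9 is chr6:52227371-52227620 (minus strand) and Hoxb4 is chr11:96318017-96318266 (plus strand).
Hoxd1: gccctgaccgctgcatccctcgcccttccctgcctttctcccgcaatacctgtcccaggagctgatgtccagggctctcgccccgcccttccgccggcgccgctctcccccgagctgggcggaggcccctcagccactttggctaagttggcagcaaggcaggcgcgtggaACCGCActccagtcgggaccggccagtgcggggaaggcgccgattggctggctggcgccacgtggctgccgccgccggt
Hoxd3: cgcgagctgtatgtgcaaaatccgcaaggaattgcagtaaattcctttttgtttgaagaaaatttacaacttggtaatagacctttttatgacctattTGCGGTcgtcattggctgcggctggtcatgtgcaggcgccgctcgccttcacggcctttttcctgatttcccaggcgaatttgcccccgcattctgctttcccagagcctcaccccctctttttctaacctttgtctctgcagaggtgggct
Hoxd10: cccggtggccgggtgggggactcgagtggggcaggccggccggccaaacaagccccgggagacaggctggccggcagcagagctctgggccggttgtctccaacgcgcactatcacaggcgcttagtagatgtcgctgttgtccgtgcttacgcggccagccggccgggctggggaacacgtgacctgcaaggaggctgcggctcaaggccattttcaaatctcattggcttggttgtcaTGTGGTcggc
Hoxa2: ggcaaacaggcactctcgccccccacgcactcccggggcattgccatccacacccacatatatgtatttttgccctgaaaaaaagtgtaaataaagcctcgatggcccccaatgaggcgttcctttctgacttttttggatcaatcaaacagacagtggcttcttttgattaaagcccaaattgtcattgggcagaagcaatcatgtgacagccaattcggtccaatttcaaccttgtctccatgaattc
Hoxa9: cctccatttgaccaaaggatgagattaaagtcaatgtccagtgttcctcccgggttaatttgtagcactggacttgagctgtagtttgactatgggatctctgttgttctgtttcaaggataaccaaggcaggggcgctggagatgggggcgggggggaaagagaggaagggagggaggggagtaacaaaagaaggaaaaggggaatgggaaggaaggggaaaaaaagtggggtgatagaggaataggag
Hoxb4: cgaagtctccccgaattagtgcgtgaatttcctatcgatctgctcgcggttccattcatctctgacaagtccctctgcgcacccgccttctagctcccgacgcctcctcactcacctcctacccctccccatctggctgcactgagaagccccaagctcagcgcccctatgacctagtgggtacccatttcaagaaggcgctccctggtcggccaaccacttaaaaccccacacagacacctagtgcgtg
The motif begins 79 bases before the start of Hoxd1, 152 before that of Hoxd3 and 10 before that of Hoxd10. A match is a description of these letters and not a binding site. Replicate 3 regions overlapped 14 of the 24 Hox windows (58.3%), against 19.6% of all windows. Replicate 1 overlapped 1 window, that of Hoxd3, and replicate 2 overlapped 0, against 0.913% and 2.67% of all windows. The median GC content of the Hox windows was 57.7%, against 52.7% for all windows. The median ratio of observed to expected CpG was 0.626 over the Hox windows and 0.384 over all windows. Among windows overlapped in replicate 3 the order turned: the ratio was 0.705 for the 14 Hox windows and 0.815 for all 6454, so the overlapped Hox starts were less dense in CpG than overlapped starts at large.

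The clusters also carry microRNA genes, whose mature products are shown because 2 of the 6 hairpins lay inside a replicate 3 region. Regions covered 27.1% of the 4 clusters in that replicate. No share over all hairpins stands beside the count, so nothing is read from it. The seed, bases 2 to 8, is in capitals.
miR-196b-5p: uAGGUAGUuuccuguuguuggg
miR-196a-5p: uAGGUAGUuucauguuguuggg
miR-10a-5p: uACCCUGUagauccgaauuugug
miR-10b-5p: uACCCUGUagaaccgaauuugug
The 4 products fall into 2 seed families, miR-196 and miR-10, and members of the miR-196 family are known to repress Hox transcripts, Hoxb8 among them. The Mir196b hairpin (chr6:52230081-52230165) lay inside a replicate 3 region assigned to Hoxa10. The Mir10a hairpin (chr11:96317165-96317274) lay inside a replicate 3 region assigned to Hoxb4, and 312 bp from a replicate 2 region of the same gene. Mir196a-2 in the Hoxc cluster lay 20 bp from a replicate 3 region of fold 5.25. The other 3 hairpins were farther from any replicate 3 region: Mir10b by 5662 bp, Mir196a-1 by 7709 bp and Mir615 by 14774 bp.

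By the authors' assignment, 2 of the 38 Hox genes had a region in replicate 1 (5.26%, Wilson 95% interval 1.46 to 17.3%), where 1.51% of all coding genes had one. In replicate 2 the count was 9 (23.7%, interval 12.99 to 39.2%), beside 5.17% of coding genes. In replicate 3 it was 22 (57.9%, interval 42.2 to 72.1%), beside 31.5% of coding genes. These intervals cover counting error only, and the members share clusters and even single regions, so they are not independent. Regions in at least 2 replicates were assigned to 9 genes, Hoxa2, Hoxa4, Hoxa9, Hoxb2, Hoxb3, Hoxb4, Hoxb7, Hoxc6 and Hoxd3, beside 5.43% of coding genes. No Hox gene had an assigned region in all 3 replicates. No share of coding genes stands beside that last count, so nothing is read from it. The Hox share stood above the coding background in each replicate, but the genes were chosen with these regions known and nothing is read from the gap.

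An assignment gives each region to a single gene, and in a dense cluster a region can cover several. Counting instead any region within the RefSeq gene body or 1 kb of it, 4 Hox genes had one in replicate 1, 11 in replicate 2 and 27 in replicate 3. The coding background on that count was 1.91%, 6.23% and 36.5%. At least 2 replicates had a region at 13 Hox genes (34.2%), beside 6.68% of coding genes. All 3 replicates had one at 2 genes, Hoxa9 and Hoxd3, beside 1.17% of coding genes. Hox genes are short, with a median length of 3.72 kb against 17.2 kb for all coding genes, and a region longer than a gene can count for its neighbours. Hoxa3, Hoxb3 and Hoxd3 are exceptions, with bodies of 44009, 40830 and 36279 bp. Neither count includes Hoxa11, Hoxb1, Hoxb13, Hoxc4, Hoxc11, Hoxc12, Hoxc13, Hoxd4, Hoxd12 or Hoxd13 in any replicate.

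**Figure D1:**
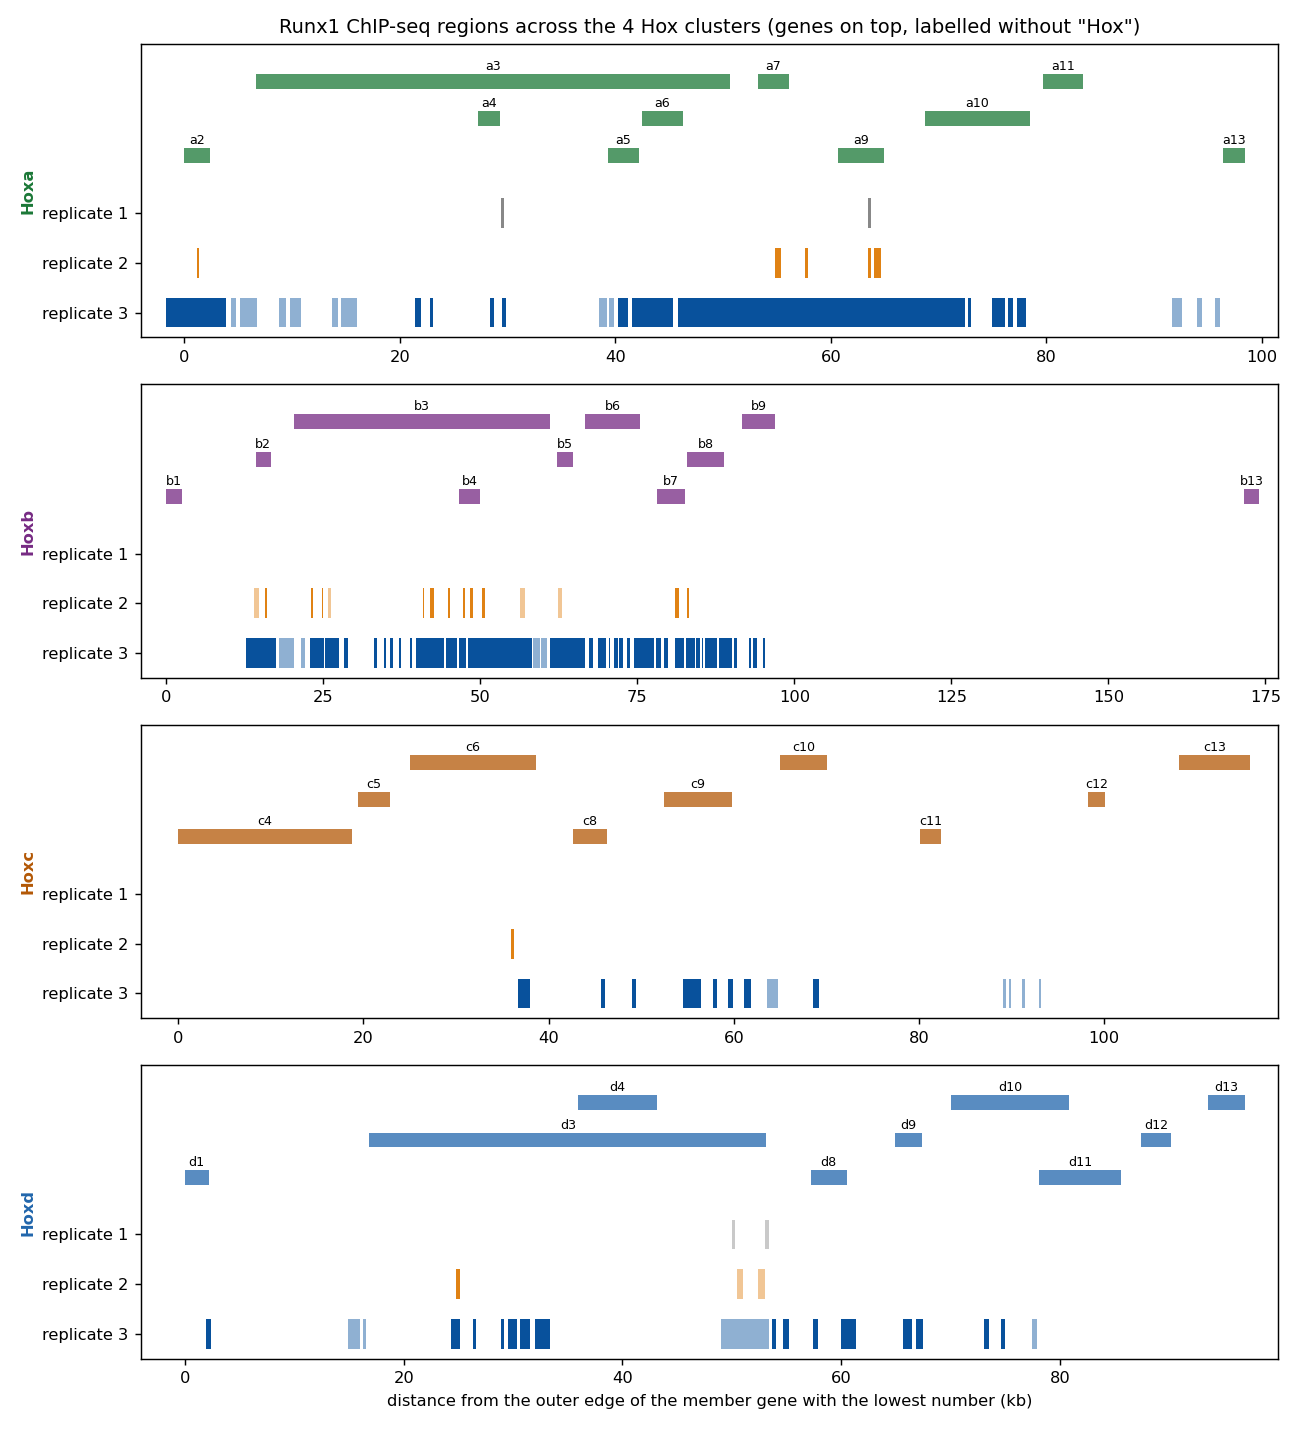
Regions called in each replicate along the 4 Hox clusters, with distance in kb from the outer edge of the lowest-numbered gene on the horizontal axis and RefSeq gene bodies as boxes above. Dark bars are regions assigned to the 38 genes and pale bars are other regions within the cluster; Hoxa and Hoxb are densely covered in replicate 3, and the stretches around Hoxb13, Hoxc4, Hoxc12 and Hoxd12 hold none.

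In the Hoxa cluster (98.5 kb, 10 genes), regions assigned to Hox genes covered 482 bp in replicate 1, 2015 bp in replicate 2 and 41487 bp in replicate 3. They belonged to 2, 3 and 5 of the 10 genes. In replicate 3 all regions between the outer genes covered 49.4% of the cluster, the highest share of the 4. A single region made up most of this. It ran over chr6:52208231-52234879 in replicate 3, was 26649 bp wide, held 64 summits and was the widest of all 13194 regions of that library, with the next at 21957 bp. Without it, the Hoxa genes kept 14838 bp. Its summits had folds from 2.76 to 8.89 with a median of 5.11, and 34 of them reached a fold of 5.

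The authors' table assigned this wide region to Hoxa10 (ENSMUSG00000000938), a gene of lumbar identity, but it covered only 38.1% of the Hoxa10 body. It covered 100% of the bodies of Hoxa7 and Hoxa9, for which the table listed 0 regions in replicate 3. It also covered 11.6% of Hoxa6 and 10.99% of the long Hoxa3 body. Its strongest summit, of fold 8.89 and a pileup of 54 reads, stood at position 52217550 within Hoxa7. The second, of fold 8.71 and a pileup of 56, stood at position 52224125 within Hoxa9. Within the Hoxa10 body its highest fold was 6.19. So the gene named for the region holds neither of its highest summits, and the replicate 3 values printed for Hoxa10 are largely those of its neighbours. Apart from it, Hoxa10 had 4 regions of 348 to 1216 bp and folds of 3.44 to 4.92 in replicate 3, and none in replicates 1 and 2.

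**Figure D2:**
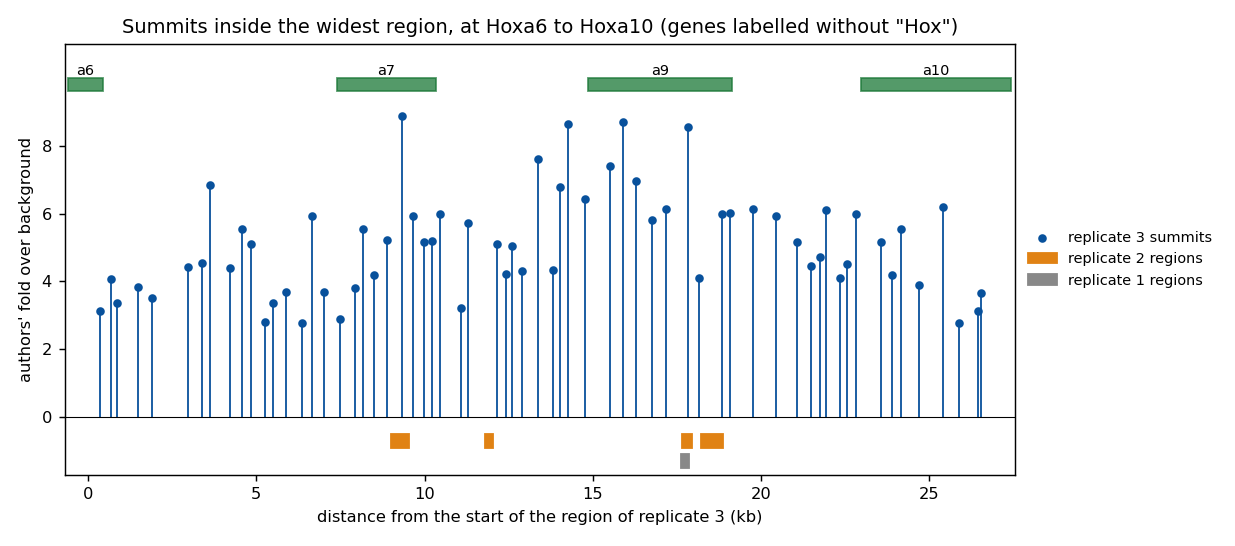
Fold of each of the 64 summits inside the widest region of replicate 3, plotted against distance along the region in kb, with the RefSeq bodies of Hoxa6, Hoxa7, Hoxa9 and Hoxa10 above (the outer ones cut at the edge) and the regions of replicates 2 and 1 below. The 2 highest summits, 8.89 and 8.71, fall within Hoxa7 and Hoxa9.

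Hoxa9 (ENSMUSG00000038227), a gene of thoracic levels that also acts in blood progenitors, carried a site called in all 3 libraries. In replicate 1 a region at chr6:52225862-52226104, inside the Hoxa9 body, had a fold of 4.18 and a pileup of 18 reads. In replicate 2 a region at chr6:52225879-52226170 had a fold of 4.55 and a pileup of 23. In replicate 3 the summit inside that interval had a fold of 8.56 and a pileup of 49. The 3 calls overlap one another, with the highest value in replicate 3. Replicate 2 had another Hoxa9 region at chr6:52226437-52227102 with a fold of 4.48, and the replicate 3 summit within it had a fold of 5.99.

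Hoxa7 (ENSMUSG00000038236) had 2 regions in replicate 2 and none assigned elsewhere. The first, at chr6:52217233-52217767, had a fold of 3.84 and a pileup of 25, and it holds the strongest summit of the wide replicate 3 region. The second, at chr6:52220019-52220279, had a fold of 3.53, and no replicate 3 summit fell within it although the wide region covers it.

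Hoxa4 (ENSMUSG00000000942), of neck levels, went the other way between libraries. In replicate 1 its region at chr6:52191832-52192070 had a fold of 8.20 and a pileup of 30, higher than 93.1% of the regions of that replicate. In replicate 3 the overlapping region at chr6:52191851-52192239 had a fold of 4.05 and a pileup of 26. Replicate 2 had no region at Hoxa4. The pileups of replicates 1 and 3 lay close together, and the solved background under them was 2.78 reads in replicate 1 and 5.66 in replicate 3. The replicate with the fewest regions thus gave the highest fold here. A second Hoxa4 region of replicate 3 had a fold of 3.45.

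Hoxa2 (ENSMUSG00000014704), which patterns the hindbrain and the skeleton of the second pharyngeal arch, had 261 bp at chr6:52163560-52163820 in replicate 2, with a fold of 3.52. In replicate 3 it had 5645 bp at chr6:52160675-52166319, with 12 summits and a fold of 7.29, and its body was covered in full. No region was assigned to it in replicate 1. Hoxa5 (ENSMUSG00000038253), needed for phrenic motor neurons and the airways, had 2 regions in replicate 3, of 3846 bp at fold 5.11 and 962 bp at fold 5.05. Hoxa3 (ENSMUSG00000079560), needed for the thymus and parathyroid, had 2 short regions in replicate 3, with folds of 5.36 and 4.37. Its RefSeq body is 44009 bp long and takes in Hoxa4, Hoxa5 and Hoxa6, so its covered share of 36.7% includes regions of those genes. Hoxa6 had no assigned region although 88.4% of its body was covered in replicate 3.

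The Hoxb cluster (173.9 kb, 10 genes) had no region in replicate 1. In replicate 2, 11 regions assigned to 4 of its genes covered 4597 bp, the most of the 4 clusters in that replicate. In replicate 3, 33 regions assigned to 8 of its genes covered 52988 bp, again the most. All regions together covered 33.3% of the cluster in replicate 3. Between Hoxb9 and Hoxb1, without the long stretch towards Hoxb13, 37 regions covered 59.7% of 96.9 kb in replicate 3, and 15 regions covered 7.28% in replicate 2. Folds in replicate 3 ran from 2.57 to 7.05, with a median of 4.30. Both ends of that range lay at the low-numbered genes, the lowest at Hoxb3 and the highest at Hoxb2.

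Hoxb3 (ENSMUSG00000048763), of the hindbrain and neck, had more regions than any other Hox gene: 6 in replicate 2 and 11 in replicate 3. In replicate 2 its folds ran from 3.57 to 5.75. The 5.75 was the highest fold of any Hox region in that replicate and belonged to 679 bp at chr11:96325571-96326249 with a pileup of 23. The replicate 3 region over this site, chr11:96324048-96328538, had a fold of 5.55 and a pileup of 26, but the replicate 3 summit inside the replicate 2 interval reached only 3.99. The strongest Hoxb3 region of replicate 3 was chr11:96320476-96321647, with a fold of 6.98, and replicate 2 had a fold of 4.16 there. All 6 regions of Hoxb3 in replicate 2 had an overlapping partner in replicate 3. The RefSeq body of Hoxb3 is 40830 bp long and takes in Hoxb4, so its regions are spread over 2 genes.

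Hoxb4 (ENSMUSG00000038692), which promotes self-renewal of blood stem cells when overexpressed, had 2 regions in replicate 2, with folds of 4.32 and 4.07. In replicate 3 it had 1 region, chr11:96310091-96320251, of 10161 bp with 27 summits and a fold of 6.44, the ninth widest of the library. The replicate 2 region at chr11:96319353-96319987 holds the strongest summit of that wide region. Hoxb2 (ENSMUSG00000075588), which acts in facial motor neurons, had 380 bp with a fold of 3.59 in replicate 2 and 4706 bp at chr11:96350841-96355546 with a fold of 7.05 in replicate 3, and its body was covered in full there. Hoxb7 (ENSMUSG00000038721) had folds of 3.43 and 3.67 in replicate 2, the first of them with the lowest −log10 q of the Hox regions in that replicate, 2.099 where the deposited list ends at 2.00. In replicate 3 the 4 regions of Hoxb7 had folds of 3.48 to 5.48, and 2 of them overlapped those of replicate 2. For Hoxb2, Hoxb4 and Hoxb7 every replicate 2 region lay under a wider replicate 3 region. No replicate 3 summit fell inside the replicate 2 region of Hoxb2 or the first of Hoxb4, so the higher replicate 3 folds there stand elsewhere in the region.

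Hoxb5, Hoxb6, Hoxb8 and Hoxb9 had regions assigned only in replicate 3, and Hoxb1 and Hoxb13 had none in any replicate. Hoxb5 (ENSMUSG00000038700), a paralog of Hoxa5, had 1 region of 5692 bp at chr11:96301553-96307244, with 16 summits and a fold of 6.58. Hoxb6 (ENSMUSG00000000690) had 7 regions covering 7045 bp, with folds of 2.72 to 5.27. Hoxb8 (ENSMUSG00000056648), which marks a lineage of microglia and whose loss gives excessive grooming, had 5 regions covering 5438 bp, with folds of 3.24 to 6.11. The Hoxb8 and Hoxb5 bodies were covered over 81.6% and 100% in replicate 3. Replicate 2 had a region within both bodies too, assigned to Hoxb7 and to the antisense gene Hoxb5os. Hoxb9 had 3 short regions with folds of 2.81 to 3.73. Its weakest had a −log10 q of 2.099, the lowest of the Hox regions in replicate 3.

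**Figure D3:**
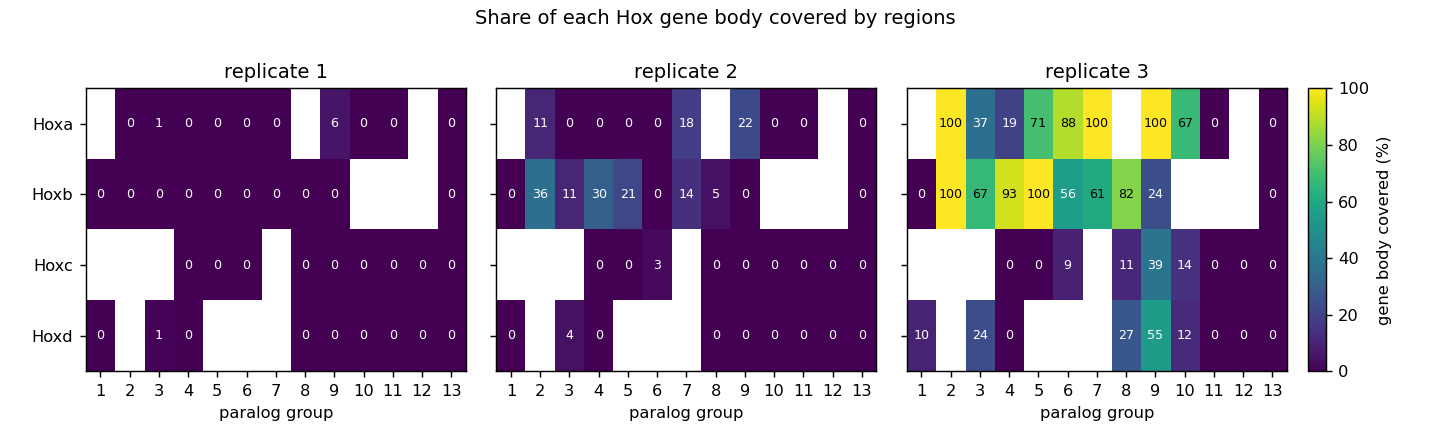
Heat map of the percent of each RefSeq gene body covered by regions, with paralog number across, cluster down, a panel for each of the 3 replicates, and white where none of the 38 genes stands. In replicate 3, Hoxa2, Hoxa7, Hoxa9, Hoxb2 and Hoxb5 reach 100%, and the genes of groups 11 to 13 stand at 0.

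The Hoxc cluster (115.7 kb, 9 genes) had no region in replicate 1 and 1 in replicate 2. In replicate 3, 8 regions assigned to 4 of its genes covered 6543 bp, with folds of 3.09 to 5.43 and a median of 3.70. All regions covered 7.70% of the cluster in replicate 3, the lowest share of the 4. Hoxc6 (ENSMUSG00000001661), a gene of the forelimb level, had 350 bp at chr15:103000626-103000975 in replicate 2, with a fold of 4.24 at a pileup of 19. Its replicate 3 region at chr15:102998908-103000135 had a fold of 5.43 and a pileup of 48. These calls do not overlap and lie 490 bp apart, so Hoxc6 counts as a gene with regions in 2 replicates without a shared site. Among regions assigned to the 38 genes, Hoxc6 holds the highest fold of the Hoxc cluster, and Hoxc8 the lowest.

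Hoxc9 (ENSMUSG00000036139), which keeps limb-level motor neurons out of the thoracic cord, had 4 regions in replicate 3 with folds of 3.37 to 3.72. Hoxc8, its neighbour at the brachial level, had 2, with folds of 3.09 and 3.77. The single region assigned to Hoxc5, chr15:102967620-102968344 with a fold of 4.26, lies inside the RefSeq body of Hoxc10 and away from that of Hoxc5. The authors' table places it 176 bp from a Hoxc5 start, so the annotations differ here. By RefSeq gene body it is a Hoxc10 region, and Hoxc5 then has none.

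The Hoxd cluster (96.9 kb, 9 genes) had 1 assigned region in replicate 2 and 15 in replicate 3. The latter belonged to 5 genes, covered 9811 bp and had folds of 2.60 to 6.18 with a median of 3.57. All regions covered 16.7% of the cluster in replicate 3. Hoxd3 (ENSMUSG00000079277), which acts in the neck vertebrae, had 1 region in replicate 2, chr2:74739974-74740335, with a fold of 3.498 at a pileup of 16. The replicate 3 region over it, chr2:74739972-74740821, had a fold of 3.15 and a pileup of 19. The fold here was not higher in the replicate with more regions. The other 7 Hoxd3 regions of replicate 3 had folds of 2.91 to 5.14.

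The start of Hoxd3 carried calls under another name. RefSeq places the Hoxd3 start at 74711993, and the authors' table gives the regions there to Hoxd3os1, an antisense RNA gene. In replicate 1 they were chr2:74711775-74712086 and chr2:74714892-74715153, each with a fold of 4.97 at a pileup of 27. In replicate 2 they were chr2:74712111-74712783 with a fold of 3.73 and chr2:74714109-74714647 with a fold of 3.15. In replicate 3 a single region of 4463 bp, chr2:74711705-74716167, spans all 4, with 10 summits and a fold of 6.63. The regions of replicates 1 and 2 lie beside each other and do not overlap. The first replicate 1 region covers the Hoxd3 promoter motif printed above, and the replicate 3 summit inside it had a fold of 6.28. By position Hoxd3 is thus 1 of the 2 Hox genes with a region in all 3 replicates, while by assignment it has one in 2. The RefSeq body of Hoxd3 is 36279 bp long and takes in Hoxd4, so it has more room for a call than most Hox genes.

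Among regions assigned to the 38 genes, Hoxd9 had the highest fold of the Hoxd cluster, 6.18 over 620 bp in replicate 3. Hoxd10 had the lowest, 2.60, in the same replicate. Hoxd8 had folds of 5.38 and 3.57 there. Hoxd1, which shapes the wiring of pain-sensing neurons in the mouse, had 1 region of 467 bp with a fold of 3.00, and that region covers the motif in its promoter. Hoxd8, Hoxd9, Hoxd10 and Hoxd1 had no region in replicates 1 and 2.

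Paralog number orders the genes along each cluster. In replicate 3, 6 of 7 genes of paralog groups 1 to 3 and 14 of 19 of groups 4 to 9 had an assigned region. Of the 12 genes of groups 10 to 13, 2 had one, and of the 9 in groups 11 to 13, 0. By gene body or 1 kb the counts were 6 of 7, 16 of 19 and 5 of 12 for groups 1 to 3, 4 to 9 and 10 to 13. In replicate 2 the assigned counts were 4 of 7, 5 of 19 and 0 of 12. Of all coding genes, 31.5% had an assigned region in replicate 3 and 5.17% in replicate 2, and 36.5% had one by gene body or 1 kb in replicate 3. The median share of the gene body covered in replicate 3 was 36.7% for groups 1 to 3, 54.7% for groups 4 to 9 and 0% for groups 10 to 13. Of the genes of groups 11 to 13, which act in the limbs and at the tail end, Hoxa13 and Hoxd11 had a region within 1 kb and none within the body. The longest stretches of each cluster without a region in replicate 3 were 13.5 kb with Hoxa11, 78.7 kb with Hoxb13, 36.7 kb with Hoxc4 and Hoxc5, and 19.0 kb with Hoxd11, Hoxd12 and Hoxd13. A stretch of 15.6 kb without a region held Hoxd4. So the group 4 paralogs split, with regions at Hoxa4 and Hoxb4 and none at Hoxc4 and Hoxd4.

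Hox regions differed from the whole list more in width than in fold, a difference that was not tested. In replicate 3 the median width of the 68 Hox regions was 616 bp, against 470 bp for the list, and 11 of them (16.2%) were at least 2 kb wide, against 2.69% of the list. They made up 0.515% of the regions and 1.31% of the covered bases, and 2 of them were among the 20 widest. Their median fold was 3.91 against 3.81, and 30.9% reached a fold of 5 against 20.7% of the list. In replicate 2 the Hox regions were narrower than the list, with medians of 352 and 425 bp, and 5.56% reached a fold of 5 against 16.5%. Their median fold there was 3.91 against 4.01. The 2 Hox regions of replicate 1, of 4.18 and 8.20, lay on either side of that list's median of 4.86. The greater width was seen in replicate 3 and not in replicate 2.

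**Figure D4:**
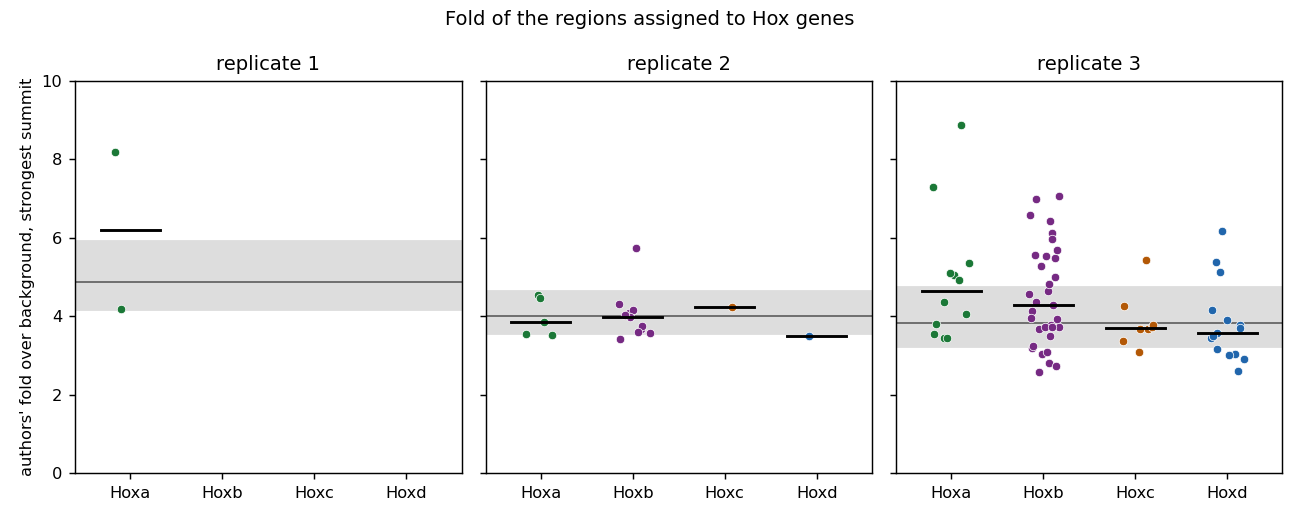
Fold of every region assigned to the 38 genes, by replicate and cluster: points are regions, black bars the medians of a cluster, and the grey line and band the median and middle quartiles of the whole list. Hox folds run from 3.43 to 5.75 in replicate 2 and from 2.57 to 8.89 in replicate 3, on both sides of the list medians.

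A region takes the fold of its strongest summit, and wide regions hold more summits, so folds of replicate 3 are given on either side of 2 kb. The 11 Hox regions of at least 2 kb had a median fold of 5.98 and a median width of 4491 bp. The 344 other regions of at least 2 kb had a median fold of 6.28 and a median width of 2855 bp. Under 2 kb the medians were 3.73 for 57 Hox regions and 3.78 for the other 12782. The Hox regions were the wider ones within both classes, with median widths under 2 kb of 552 bp against 459 bp, so width is not matched here. Several summits were found in 39 of the 68 Hox regions of replicate 3, in 1 of 18 in replicate 2 and in none in replicate 1. Over all regions the shares with several summits were 29.1%, 13.6% and 7.98% in replicates 3, 2 and 1.

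**Figure D5:**
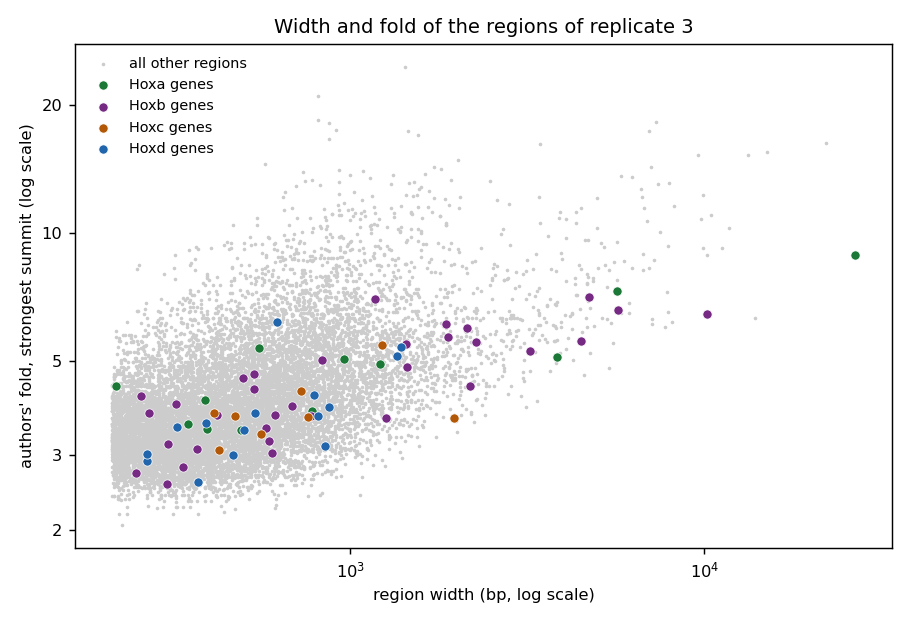
Width in bp against fold of the strongest summit, both on log axes, for the regions of replicate 3, with regions assigned to the 38 genes coloured by cluster over all others in grey. The 11 Hox regions of at least 2 kb have a median fold of 5.98, against 6.28 for the 344 other regions past that limit, and the region of 26649 bp lies at the far right.

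Between replicates, Hox regions of the smaller sets overlapped the larger about as often as all regions did. Of the 18 Hox regions of replicate 2, 17 (94.4%) shared 1 bp or more with one of replicate 3, beside 92.1% of all 1641 regions of replicate 2. The exception was Hoxc6. Both Hox regions of replicate 1 overlapped a replicate 3 region, beside 94.7% of all 451 regions of replicate 1. Of these 2, 1, at Hoxa9, overlapped replicate 2, beside 55.2% of the list. In the other direction, 13 of 68 Hox regions of replicate 3 (19.1%) overlapped replicate 2, beside 10.4% of the list, and 2 (2.94%) overlapped replicate 1, beside 3.11%. The wide regions of replicate 3 make overlap easier. With summits required to lie within 200 bp, 12 of the 18 Hox regions of replicate 2 had a partner in replicate 3. No share over the whole list stands beside that count, so nothing is read from it.

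Other genes inside the clusters took a share of the calls. In replicate 3, 11 regions of the Hoxa cluster (8893 bp), 4 of Hoxb (4914 bp), 5 of Hoxc (2370 bp) and 4 of Hoxd (6347 bp) were assigned to genes outside the 38. Most of these are antisense or long non-coding RNA genes, such as Hoxaas2, Hoxaas3, Hoxb5os, Hoxb3os, Hotair and Haglr. Hotair, a long non-coding RNA of the Hoxc cluster linked to Polycomb silencing, had a region of 236 bp and fold 3.51. Hoxaas2 had 2 regions beyond that of Hoxa2, the nearer of 485 bp at fold 3.57 and the farther of 1583 bp at fold 4.98. Hoxb3os had 767 bp at fold 4.67 in replicate 2, more than the 3.59 assigned to Hoxb2 within 1 kb of it. That site lies inside the replicate 3 region assigned to Hoxb2. The replicate 3 regions of Hoxb3os stand elsewhere, with 2298 bp at fold 4.41 and 634 bp at fold 3.02. In replicate 2 the others were Hoxb5os, Gm11536 and Hoxd3os1, and in replicate 1 Hoxd3os1 alone.

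Genes that work with or control the Hox clusters were read from 5 lists, as counts beside the same backgrounds of 1.51%, 5.17% and 31.5% of coding genes. Of 9 genes of the TALE cofactors, 0, 2 and 7 had an assigned region in replicates 1, 2 and 3. Meis1, a partner of Hox proteins in blood progenitors, had 2 regions covering 5058 bp with a highest fold of 6.67 in replicate 2, and 1 of 9807 bp with a fold of 10.8 in replicate 3. Pbx3 had folds of up to 4.04 in replicate 2 and 4.07 in replicate 3. The Meis1 fold of replicate 3 exceeds that of every Hox region.

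Of 16 Polycomb genes, 0, 2 and 9 had an assigned region. Eed, a core subunit of the complex that methylates histone H3, had folds of 4.41 and 4.59 in replicates 2 and 3. Bmi1, of the complex that ubiquitinates histone H2A, had 5.14 and 6.997. Of 9 Trithorax genes, 2, 1 and 7 had a region. Kmt2a, the histone methyltransferase that maintains Hox expression, had 1 region in each replicate, with folds of 6.97, 5.87 and 6.72. Kdm6a, a demethylase of the Polycomb mark, had 6.49 in replicate 1 and 5.57 in replicate 3. Kmt2a was thus called by assignment in all 3 replicates at folds close to each other.

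Retinoic acid acts on the clusters from outside. Of 12 genes for retinoic acid synthesis, breakdown and reception, 0, 0 and 4 (33.3% in replicate 3, near the 31.5% of coding genes) had a region, with Rara, Rarg, Rxra and Aldh1a2 at folds of 2.57, 3.41, 3.90 and 3.46 in replicate 3. Of 8 homeobox genes of the Cdx, ParaHox and Evx families, 0, 0 and 2 (25% in replicate 3) had one. These were Evx1 and Evx2, which lie beyond the high-numbered ends of the Hoxa and Hoxd clusters, with folds of 4.04 and 3.65. Cdx1, Cdx2 and Cdx4, which regulate Hox genes in the embryo, had none in any replicate.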

How the data were processed

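Runx1 ChIP-seq of 3 spinal cord replicates was used. Peak calling with MACS2 2.1.2 on the build GRCm38 stands in the submitters' processing notes, next to Bowtie2, Trimmomatic 0.38, Picard 2.18.26, SAMtools 1.9 and FastQC. Settings of these tools, and the control library, remain not given in the sources used here. Each replicate has its own deposited peak list, so regions were called per sample. The authors' deposited lists give for each summit a score, a fold (ratio of pileup to local background), a −log10 p and a −log10 q. The p-values and q-values are the authors' own and were used only to filter. The authors' deposited annotated tables give each region a location class and a gene. Deposited starts count from 0 and are printed from 1.

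A region with more than 1 summit entered once, with the fold of the strongest. Pileup and background were solved from the deposited fold and −log10 p under a Poisson model, to within 0.001 in −log10 p, and the solver was tested on simulated data. Gene bodies came from RefSeq (GRCm38.p6), where 98.8%, 99.7% and 99.1% of the coding symbols of replicates 1, 2 and 3 matched. Overlap means at least 1 bp. No test was run, since there was 1 group and the genes were chosen on these values. The members and lists were chosen with earlier results of these data known. Values were given in full for Hox genes with a region in at least 2 replicates and for the 10 with the most bases in replicate 3; the rest are given by counts, with the highest and lowest fold of a cluster named, and other genes when they had regions in at least 2 replicates or inside a cluster. The retinoic acid and Evx genes named fall outside this rule and were chosen after their values were seen. Alternatives were a −log10 q of 5, a fold of 5, equal numbers of regions (451), gene body counting, all regions of a cluster, stricter overlap and leaving out each replicate. Scripts used matplotlib 3.10.9, scipy 1.17.1, pandas 2.3.3, statsmodels 0.14.6, numpy 2.4.6 and Python 3.11.15.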

Additional observations from a re-analysis of the deposited data

How the results depend on the processing

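Counts of Hox genes fell with stricter calling. Those with a region in at least 2 replicates went from 9 to 2 with a −log10 q of at least 5, to 1 with a fold of at least 5 and to 1 with the 451 strongest regions of each replicate, and to between 1 and 7 without 1 of the replicates. Replicate 1 went from 2 genes to 1 by either threshold and to 4 by gene body. Replicate 2 went from 9 to 3 by q, 1 by fold and 2 by equal numbers. Replicate 3 went from 22 to 19 by q, 15 by fold and 1 by equal numbers. The rise from replicate 1 to replicate 3 in the number of Hox genes therefore remained under both thresholds. It did not appear at equal numbers of regions, and the cause was not tested. No share of coding genes at either threshold or at equal numbers stands beside these counts.

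Covered length in kb, with the −log10 q and then the fold threshold, went from 0.482 to 0.239 and 0.239 for Hoxa in replicate 1, from 4.597 to 1.068 and 0.679 for Hoxb in replicate 2, from 0.35 to 0 and 0 for Hoxc and from 0.362 to 0 and 0 for Hoxd in replicate 2, and from 9.811 to 4.656 and 3.365 for Hoxd in replicate 3. By fold alone, Hoxa in replicate 2 went from 2.015 to 0 and Hoxc in replicate 3 from 6.543 to 1.228. With all regions of the cluster, Hoxb in replicate 2 became 7.055, and Hoxd became 0.574, 1.574 and 16.158 in replicates 1, 2 and 3. Requiring 50% of both regions, the overlaps with replicate 3 fell from 2 to 1 for replicate 1 and from 17 to 0 for replicate 2, since the replicate 3 regions are wider. In all, 32 values stayed within 1.5 times or the stated tolerance, among them the q and fold counts of genes in replicate 3. No paired analysis was possible because there is 1 group. Depth is unknown, so a gene without a region in replicate 1 or 2 is not shown to be unbound.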
